A study of Mus musculus with 12 samples.

Results

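Th9 cells that were polarized with endomelipeptide A (EpA) and fatostatin together were compared with Th9 cells that received the vehicle alone. The libraries compared are 6 of the 12 RNA-seq libraries of the study, 3 of the combined treatment and 3 of DMSO. The genes tested are 13733 of the 32051 measured, those that averaged 0.1 FPKM or more across all 12 libraries. FPKM, which scales the fragments of a gene by its length and by the size of the library, is a relative unit, so a change in it is a change in the part of the library that a gene takes.

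The cells of all groups were naive CD4+ T cells, which the study isolated with a kit from the spleens of C57BL/6J mice. They were activated through CD3 and CD28 with antibodies, and polarized with IL-4 at 10 ng/mL and TGF-β at 1 ng/mL while IL-12 and IFN-γ were neutralized. The control group received DMSO, the other groups 10 μM EpA, 5 μM fatostatin, or both at these doses, and RNA was collected on day 4. EpA is a fungal cyclic lipopeptide that the study selected for raising IL-9, and fatostatin is an inhibitor of the activation of sterol regulatory element-binding proteins (SREBPs). Nothing in the labels says that the 3 replicates of a group came from separate mice or cultures, so the p-values measure the spread between these samples, which may be technical.

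Th9 cells are helper T cells that arise when IL-4 and TGF-β act together on an activated naive CD4+ T cell. IL-4 signals through STAT6, TGF-β through SMAD proteins, and the antigen receptor through NFAT, NF-κB, and AP-1. These inputs meet at the *Il9* gene, together with the factors IRF4 and BATF. SREBPs are membrane-bound factors that, once cut and released, switch on genes of fatty acid and cholesterol synthesis.

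The libraries held 36019739 to 42780988 reads on genes for DMSO and 40335039 to 41859250 for both compounds, and 1 read on a gene of 1 kb corresponded to 0.0230 to 0.0273 FPKM in these 6 libraries. On the first principal component of the 6 libraries, which held 48.6% of the variance over 13726 genes, the DMSO libraries scored from -76.3 to -71.1 and the libraries of both compounds from 71.7 to 79.7. On the second component, with 16.2%, replicate 1 of both compounds (-73.2) and DMSO replicate 2 (-41.9) stood apart from the other 4 libraries (8.16 to 45.1). T cell genes were at high levels in every library, with *Cd3e* at 53.3 ± 0.88 FPKM and *Cd4* at 78.2 ± 0.147 FPKM in the DMSO libraries (mean ± SD, n = 3, as for all group values below). Markers of B cells summed to 6.00 to 7.95 FPKM over 6 genes with DMSO and 6.33 to 6.94 FPKM with both compounds. Those of myeloid cells summed to 2.59 to 2.71 FPKM and 2.85 to 3.75 FPKM over 10 genes.

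Differences were tested with limma on log2(FPKM + 0.1), a scale that understates the change of genes at low levels. The fit held all 12 libraries, so each SE and p also draws on the spread within the EpA and fatostatin groups. A gene was called where its adjusted p was under 0.05 and its change 1.5-fold or more. Against DMSO, 498 genes were higher (3.63% of those tested) and 277 were lower (2.02%) with both compounds. The lowest and highest values of the groups did not overlap for 491 of the 498 and for 272 of the 277, where 46.4% of all genes tested showed no overlap. At an adjusted p below 0.05 with no limit on the fold change, 2706 genes were higher (19.7%) and 2171 lower (15.8%). The counts of list members are by this rule, unless members are said to be called, and stand against these 2 shares. An exact permutation test of 1 gene in 3 libraries against 3 has 0.1 as its smallest two-sided p, and limma's adjusted p is therefore given throughout. Of the called genes, 270 of the higher and 118 of the lower had a mean below 1 FPKM. Many of the steps were small: 172 genes were higher and 101 lower by a factor of at least 2. Without replicate 1 of both compounds, 454 genes were higher and 271 lower, and without DMSO replicate 2, 504 and 252.

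**Figure D1:**
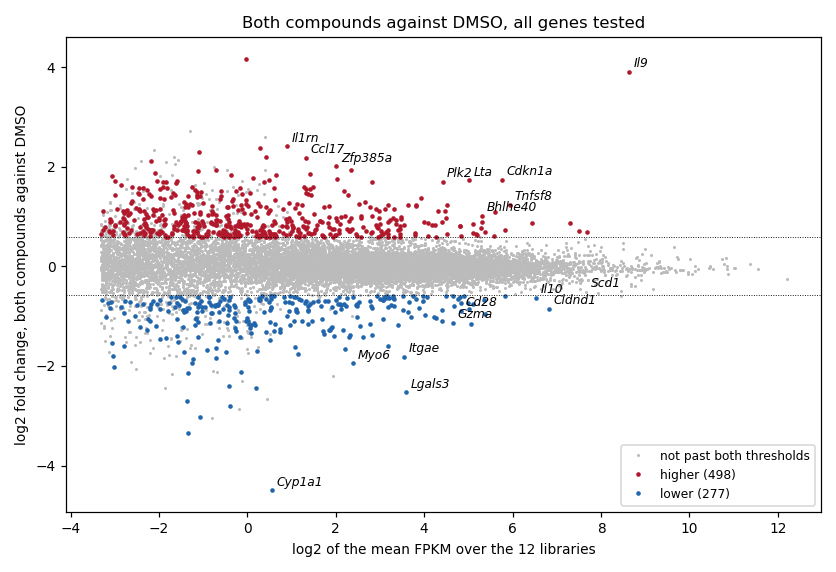
Log2 fold change of both compounds against DMSO (vertical axis) against the log2 of the mean FPKM over the 12 libraries (horizontal axis) for the 13733 genes tested. Red and blue points are the 498 higher and 277 lower genes, dotted lines mark a fold change of 1.5, and *Il9* and *Cyp1a1* lie at the ends of the range among genes of at least 1 FPKM; the unlabeled red point above *Il9* is the microRNA gene *Mir8116*, which was at 0 in the 3 DMSO libraries.

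*Il9* showed the largest increase of any gene with a mean of at least 1 FPKM. It encodes IL-9, the cytokine that names the subset. The DMSO libraries held 51, 57.7 and 55.1 FPKM and the libraries of both compounds 805, 802 and 855 FPKM, which is 3.91 ± 0.057 higher on the log2 scale (estimate ± SE, as below; limma adjusted p = 3.74e-12). Every library of the combined treatment lay far above every DMSO library. *Il9* lies on chromosome 13, from 56479277 to 56482246 of GRCm38, on the minus strand. The 250 bases before its start in RefSeq (GRCm38.p6, chr13:56482258-56482507, minus strand) are shown here because the gene had the largest increase among those averaging at least 1 FPKM. Capitals mark the letters TGANTCA, the core of sites bound by AP-1 and BATF-JUN dimers, searched on both strands.
Il9: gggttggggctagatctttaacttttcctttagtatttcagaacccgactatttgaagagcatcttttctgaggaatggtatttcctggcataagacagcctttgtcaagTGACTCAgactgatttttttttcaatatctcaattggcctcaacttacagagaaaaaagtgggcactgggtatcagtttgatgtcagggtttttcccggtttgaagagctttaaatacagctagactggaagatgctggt
This stretch held the letters once, and they were found in 6.87% of the 27018 promoters of this length. Of the 17 tested cytokine genes with such an entry, 6 held them.

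Other cytokines of type 2 helper cells followed only in part. *Il13*, which drives mucus and IgE responses, stood at 8.86, 8.67 and 8.93 FPKM with DMSO and at 21.5, 20.5 and 20.4 FPKM with both compounds (log2 fold change 1.23 ± 0.068, limma adjusted p = 1.34e-07). *Il5*, the eosinophil factor, was at a low level that went from 0.631 ± 0.128 to 1.58 ± 0.147 FPKM (log2 fold change 1.21 ± 0.15, limma adjusted p = 7.17e-05). *Il4* did not pass the test, with 8.66, 9.12 and 8.34 FPKM in the DMSO libraries and 8.4, 9.35 and 9.55 FPKM in those of both compounds. The values of *Il4* overlapped, and its log2 fold change was 0.06 ± 0.055 (limma adjusted p = 0.428). *Il21*, a growth factor for B and CD8+ T cells, rose from 1.27 ± 0.108 to 4.03 ± 0.133 FPKM, and *Il1rn*, the antagonist of the IL-1 receptor, from 0.604 ± 0.062 to 3.63 ± 0.134 FPKM, with log2 fold changes of 1.59 and 2.41 (limma adjusted p = 9.88e-08 and 4.48e-09).

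*Il10* and *Ifng* moved the other way. *Il10*, which encodes an inhibitory cytokine, fell from 109, 111 and 110.2 FPKM to 69.8, 71.3 and 72.7 FPKM (log2 fold change -0.63 ± 0.024, limma adjusted p = 7.07e-09). *Ifng*, the cytokine of Th1 cells, fell from 2.05, 2.02 and 2.54 FPKM to 1.27, 1.28 and 1.36 FPKM (log2 fold change -0.71 ± 0.12, limma adjusted p = 0.00088). Neither gene had a library of one group within the range of the other. Of the 20 T cell cytokine genes tested, 8 were higher and 4 lower by adjusted p, and 8 did not pass. The median log2 fold change of the list was 0.07, from 0.0452 to 0.315 over the alternatives, beside 0.02 over all genes tested.

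Among ligands of the TNF superfamily, 7 of 12 genes were higher and 2 lower. *Lta*, which encodes lymphotoxin α, rose from 16.4, 16.7 and 15.6 FPKM to 50.6, 55.3 and 56 FPKM (log2 fold change 1.73 ± 0.048, limma adjusted p = 6.11e-10). *Tnfsf8*, the ligand of CD30, rose from 37.4 ± 1.02 to 87.9 ± 2.38 FPKM, and *Tnfsf4*, the OX40 ligand, from 6.81 ± 0.552 to 13.6 ± 0.117 FPKM (limma adjusted p = 7.3e-11 and 1.64e-07). *Tnfsf13b*, which encodes the B cell factor BAFF, fell from 7.07 ± 0.0802 to 4.05 ± 0.223 FPKM (limma adjusted p = 4.27e-07). *Tnf* and *Fasl* rose by less, with log2 fold changes of 0.52 and 0.38 (limma adjusted p = 0.00144 and 0.00282).

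The chemokine genes that passed the test were *Ccl17* and *Ccl22*, the ligands of CCR4, out of 9 tested. Both were higher, a share close to the 19.7% of all genes tested that were higher. *Ccl17* stood at 0.903, 0.952 and 1.12 FPKM with DMSO and at 4.58, 5.05 and 4.84 FPKM with both compounds (log2 fold change 2.18 ± 0.10, limma adjusted p = 3.99e-08). *Ccl22* rose from 2.19 ± 0.099 to 8.7 ± 0.339 FPKM (log2 fold change 1.94 ± 0.083, limma adjusted p = 1.92e-08). In both genes the means of the 2 single-compound groups lay between those of DMSO and of both compounds, with *Ccl17* at 2.59 FPKM with EpA and 1.54 FPKM with fatostatin, and *Ccl22* at 5.68 and 3.79 FPKM.

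**Figure D2:**
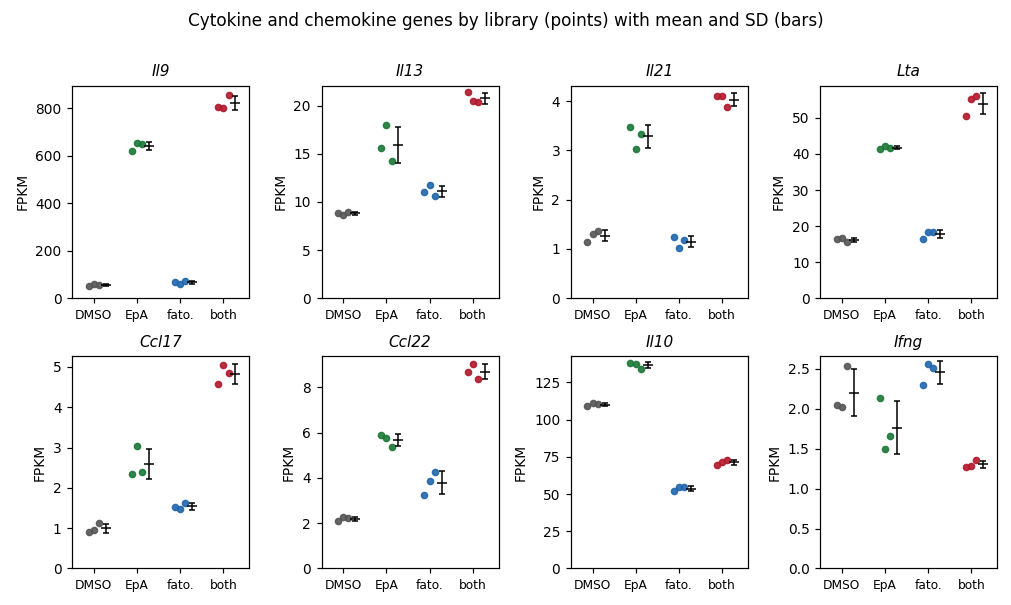
FPKM of 8 cytokine and chemokine genes in the 3 libraries (points) of each of 4 groups, with the mean and SD to the right of the points, on linear axes that start at 0. The libraries of both compounds are highest for *Il9*, *Il13*, *Il21*, *Lta*, *Ccl17*, and *Ccl22*, at or above 802 FPKM for *Il9*, and lie below the DMSO libraries for *Il10* and *Ifng*.

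Transcription factors that act in Th9 cells were mostly level or higher. Of 28 tested, 15 were higher and 6 lower, and the list median was 0.12. *Bhlhe40*, a factor that sustains cytokine output in helper T cells, rose from 27.2, 26.8 and 27.7 FPKM to 54.8, 56.1 and 54.1 FPKM (log2 fold change 1.01 ± 0.022, limma adjusted p = 9.44e-11). *Fosl2*, an AP-1 subunit, rose from 5.998 ± 0.183 to 10.3 ± 0.14 FPKM, and *Smad3*, a transducer of TGF-β signals, from 6.58 ± 0.289 to 9.7 ± 0.585 FPKM (limma adjusted p = 9.14e-08 and 5.76e-06). *Etv5*, an ETS factor, rose from 0.563 ± 0.0825 to 1.46 ± 0.186 FPKM (limma adjusted p = 1.46e-05).

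Among factors often used to define the program, *Batf* and *Irf4* changed by small steps. *Batf* rose from 75.5 ± 1.51 to 88.8 ± 1.9 FPKM and *Irf4* from 156 ± 1.51 to 164 ± 3.35 FPKM (log2 fold changes 0.23 and 0.07, limma adjusted p = 4.88e-05 and 0.0292). *Irf4* passed the test by a narrow margin: scaling by median ratios, or leaving out DMSO replicate 1 or 3 or replicate 1 or 3 of both compounds, took its adjusted p to between 0.0558 and 0.103. *Batf3* (39.5 ± 1.24 and 37.4 ± 2.94 FPKM with DMSO and both compounds) and *Gata3* (50.4 ± 2.4 and 51.1 ± 1.6 FPKM) did not pass (limma adjusted p = 0.234 and 0.702). *Pparg*, a lipid-sensing nuclear receptor, stood at 3.18 ± 0.265 and 3.87 ± 0.228 FPKM (log2 fold change 0.28, limma adjusted p = 0.0222), and without DMSO replicate 2 or 3, or replicate 2 or 3 of both compounds, the adjusted p lay between 0.0547 and 0.0813. *Spi1*, which encodes PU.1, was below the minimum level for the test, with 0 to 4 reads in the DMSO libraries and 8 to 10 in those of both compounds. *Maf* fell from 16.7 ± 0.152 to 11.6 ± 0.232 FPKM and *Prdm1*, which encodes BLIMP-1, from 1.06 ± 0.0911 to 0.58 ± 0.058 FPKM (limma adjusted p = 8.92e-08 and 0.00026).

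Factors of other helper lineages were more often lower. Of 18 tested, 11 were lower and 2 higher, and the median log2 fold change was -0.25. *Ikzf3*, which encodes Aiolos, fell from 23.8, 27 and 25.3 FPKM to 12.9, 12.2 and 12.2 FPKM (log2 fold change -1.02 ± 0.052, limma adjusted p = 6.86e-08). *Foxp3*, the factor of regulatory T cells, fell from 1.87 ± 0.0795 to 1.01 ± 0.0486 FPKM (limma adjusted p = 0.000114). *Tbx21*, the Th1 factor, stood at 3.91 ± 0.05005 and 3.39 ± 0.308 FPKM and did not pass (limma adjusted p = 0.0604), but was lower with median-ratio scaling or over genes of at least 1 FPKM (limma adjusted p = 0.0426 and 0.0482).

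Most of the listed target genes that p53 switches on rose. p53 is a stress-activated factor that halts the cell cycle, aids repair of DNA, and can start apoptosis. Of 22 p53 target genes tested, 18 were higher and 2 lower by adjusted p, and 13 were called higher. The median log2 fold change of the list was 0.85, beside 0.02 over all genes tested. *Trp53* itself was at 52.8, 51.3 and 54.3 FPKM with DMSO and 52.6, 53 and 55.4 FPKM with both compounds, ranges that overlapped (limma adjusted p = 0.586).

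*Cdkn1a*, which encodes the cyclin-dependent kinase inhibitor p21, rose from 26, 26.3 and 26.2 FPKM to 85, 87.3 and 89.5 FPKM (log2 fold change 1.73 ± 0.022, limma adjusted p = 1.96e-12). With EpA alone it stood at 52.2 ± 0.198 FPKM and with fatostatin alone at 52.2 ± 1.2 FPKM. The single-compound libraries thus lay at the same level, between those of DMSO and of both compounds. *Plk2*, a stress-responsive kinase, rose from 10.4, 11 and 10.3 FPKM to 34.5, 34.2 and 35.1 FPKM (log2 fold change 1.70 ± 0.041, limma adjusted p = 1.58e-10). *Phlda3*, an inhibitor of AKT, rose from 8.33 ± 0.424 to 21.7 ± 1.18 FPKM, and *Zmat3*, an RNA-binding regulator of splicing, from 6.24 ± 0.163 to 14 ± 0.448 FPKM (limma adjusted p = 2.58e-08 and 3.71e-09).

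The list included genes of several p53 functions. *Mdm2*, the ubiquitin ligase that degrades p53, rose from 13.7 ± 0.249 to 24.5 ± 0.198 FPKM (limma adjusted p = 1.72e-09). The proapoptotic members *Pmaip1*, *Bbc3*, and *Bax* rose by 1.15, 0.97, and 0.51 on the log2 scale (limma adjusted p = 2.5e-08, 8.47e-05, and 2.54e-05). Outside the list, *Zfp385a*, a zinc finger protein that binds p53, rose from 1.65 ± 0.17 to 6.93 ± 0.299 FPKM (limma adjusted p = 1.17e-08), and *Sesn2*, a stress sensor that restrains mTORC1, from 7.44 ± 0.25 to 17.6 ± 0.571 FPKM (limma adjusted p = 1.31e-09). The members that were lower were *Ckap2*, a spindle gene, and *Sesn1*, with log2 fold changes of -0.20 and -0.14 (limma adjusted p = 0.000101 and 0.0289). *Sesn1* did not pass without DMSO replicate 1 or 3 or without replicate 1 or 3 of both compounds, which left 1 member lower.

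Over the 30 genes of the BCL-2 family and the apoptosis machinery, some of them p53 targets, 11 were higher and 3 lower, or 5 lower without DMSO replicate 1, and the median was 0.09. *Apaf1*, which builds the apoptosome, rose from 9.91 ± 0.131 to 14.5 ± 0.597 FPKM (limma adjusted p = 4.65e-07). *Mlkl*, the executor of necroptosis, fell from 14.2, 14.4 and 14.5 FPKM to 6.57, 6.05 and 6.29 FPKM (log2 fold change -1.18 ± 0.044, limma adjusted p = 6.62e-09).

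Among the largest decreases were those of genes of the aryl hydrocarbon receptor (AHR), a ligand-activated factor that pairs with ARNT and turns on enzymes of xenobiotic metabolism and its own repressors. Of 7 tested genes of the list, which was chosen with earlier results of these data known, 5 were lower and 1 higher. All 5 that were lower were called. The median log2 fold change of the list was -1.52. Over the alternatives it ran from -2.56 to -0.702, with 3 to 5 members lower. *Cyp1a1*, a cytochrome P450 and the standard readout of AHR, went from 2.95, 2.63 and 2.68 FPKM to 0.0507, 0 and 0.035 FPKM. The DMSO libraries held 300 to 325 reads of the gene and those of both compounds 0 to 6. On the scale used the log2 fold change was -4.49 ± 0.17 (limma adjusted p = 5.75e-09), a value that depends on the constant added.

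Repressors of the receptor were among the lower genes. *Ahrr*, which encodes the AHR repressor, stood at 1.22, 1.35 and 1.21 FPKM with DMSO and 0.172, 0.143 and 0.158 FPKM with both compounds (log2 fold change -2.40 ± 0.11, limma adjusted p = 3.99e-08). *Tiparp*, which inactivates AHR by ADP-ribosylation, fell from 11.5, 11.3 and 11.8 FPKM to 6.28, 6.82 and 7.005 FPKM (log2 fold change -0.77 ± 0.04, limma adjusted p = 7.9e-08). *Lgals3*, which encodes the lectin galectin-3, fell from 23, 24.6 and 24.3 FPKM to 4.05, 4.74 and 3.51 FPKM (log2 fold change -2.53 ± 0.084, limma adjusted p = 2.49e-09), and *Cyp1b1* from 0.286 ± 0.0246 to 0.0343 ± 0.00871 FPKM (limma adjusted p = 2.27e-05). *Ahr* itself rose from 14.3 ± 0.175 to 15.9 ± 0.342 FPKM (log2 fold change 0.15, limma adjusted p = 0.000484), and *Arnt* did not pass (12 ± 0.208 and 11.6 ± 0.353 FPKM, limma adjusted p = 0.173).

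The 250 bases before the RefSeq start of 4 of the genes that fell are shown, because the receptor binds at a short core, GCGTG, the xenobiotic response element. Capitals mark that core, searched on both strands and printed as it or its reverse complement reads on the printed strand (GRCm38.p6; *Cyp1a1* chr9:57697363-57697612, plus strand; *Lgals3* chr14:47373610-47373859, plus strand; *Ahrr* chr13:74292332-74292581, minus strand; *Tiparp* chr3:65528197-65528446, plus strand).
Cyp1a1: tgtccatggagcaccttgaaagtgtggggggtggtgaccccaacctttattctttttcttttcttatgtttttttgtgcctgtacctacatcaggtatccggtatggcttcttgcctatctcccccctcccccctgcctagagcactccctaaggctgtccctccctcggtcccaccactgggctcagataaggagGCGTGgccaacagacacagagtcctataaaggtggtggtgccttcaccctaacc
Lgals3: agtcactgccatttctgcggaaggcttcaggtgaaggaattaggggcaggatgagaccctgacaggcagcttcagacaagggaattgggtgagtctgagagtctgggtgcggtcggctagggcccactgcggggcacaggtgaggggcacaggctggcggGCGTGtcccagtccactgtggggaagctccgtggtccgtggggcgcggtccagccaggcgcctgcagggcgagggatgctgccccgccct
Ahrr: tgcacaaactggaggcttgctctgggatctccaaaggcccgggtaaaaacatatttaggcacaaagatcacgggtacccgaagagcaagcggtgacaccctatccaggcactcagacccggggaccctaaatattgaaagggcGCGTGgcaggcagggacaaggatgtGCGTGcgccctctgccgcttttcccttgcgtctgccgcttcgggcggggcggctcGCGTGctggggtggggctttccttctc
Tiparp: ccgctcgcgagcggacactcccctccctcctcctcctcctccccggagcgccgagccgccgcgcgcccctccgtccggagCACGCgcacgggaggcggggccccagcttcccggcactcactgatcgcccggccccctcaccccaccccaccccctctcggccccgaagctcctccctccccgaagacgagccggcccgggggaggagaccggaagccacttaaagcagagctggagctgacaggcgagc
*Ahrr* held the core 3 times in this stretch and the other 3 genes once. It was present in all 6 tested members of the list with an entry, 5 of them lower, and in 28.2% of the 27018 promoters of this length. The letters describe these stretches, and binding was not measured here.

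*Nqo1*, an antioxidant enzyme induced by both AHR and NRF2, fell from 3.99, 3.73 and 3.55 FPKM to 1.94, 1.7 and 1.51 FPKM (log2 fold change -1.09 ± 0.12, limma adjusted p = 2.28e-05). The NRF2 list as a whole had no common direction, with 8 of 24 genes higher and 5 lower, and a median of 0.06. Without DMSO replicate 3, 3 were lower, and with median-ratio scaling 5 were higher and 5 lower.

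**Figure D3:**
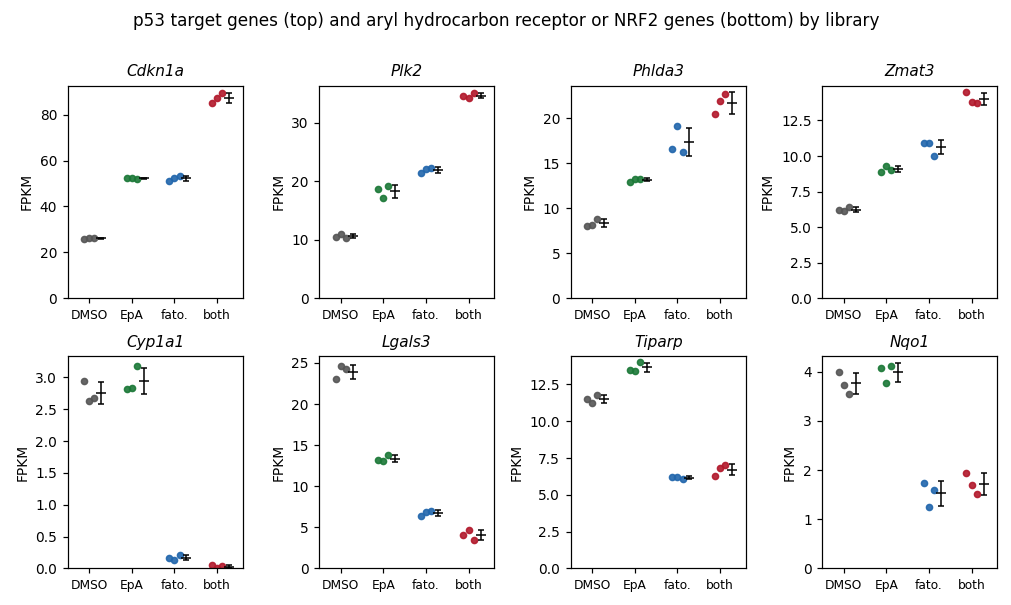
FPKM of 4 p53 target genes (top row) and of 3 AHR genes and *Nqo1* (bottom row) in the 3 libraries (points) of each group, with the mean and SD to the right, on linear axes that start at 0. *Cdkn1a* stands near 26.2 FPKM with DMSO, 52.2 FPKM with either compound, and 87.2 FPKM with both, and the 4 lower genes are low in both groups that received fatostatin.

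Genes of cytotoxic granules and natural killer receptors were lower in part. Of 20 tested, 8 were lower and 5 higher, and 6 were called lower. The count higher was 2 or 3 without any 1 of the DMSO replicates or without replicate 2 or 3 of both compounds. *Gzma*, which encodes granzyme A, fell from 38.1, 35.2 and 33.6 FPKM to 15.3, 17.5 and 15.8 FPKM (log2 fold change -1.13 ± 0.078, limma adjusted p = 7.84e-07). *Gzmb* fell from 148 ± 3.42 to 104 ± 1.73 FPKM, and *Gzmc* from 3.3 ± 0.492 to 1.45 ± 0.438 FPKM (limma adjusted p = 1.01e-08 and 0.00332). The receptor genes *Klrd1*, *Klrc1*, and *Klrk1* changed by -1.30, -1.18, and -1.11 on the log2 scale (limma adjusted p = 2.51e-06, 0.00112, and 5.09e-06). *Prf1*, the perforin gene, was near the minimum level at 0.189 ± 0.0567 and 0.179 ± 0.0254 FPKM and did not pass (limma adjusted p = 0.95).

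Markers of other lymphocytes moved beside these genes. *Cd8a* fell from 1.89, 1.6 and 1.94 FPKM to 0.466, 0.43 and 0.577 FPKM (log2 fold change -1.70 ± 0.11, limma adjusted p = 4.51e-07), whereas *Cd8b1* stood at 7.6 ± 0.426 and 7.25 ± 0.889 FPKM and did not pass (limma adjusted p = 0.6). Together these 2 CD8 genes summed to 8.71 to 9.80 FPKM with DMSO and 6.98 to 8.60 FPKM with both compounds. The 4 natural killer markers summed to 0.352 to 0.385 FPKM and 0.148 to 0.284 FPKM. *Eomes* was lower among them, at 0.22 ± 0.0441 and 0.0654 ± 0.00666 FPKM (limma adjusted p = 0.00438), and *Ncr1* and *Klrb1c* were under the minimum level for the test. *Trgc1*, a constant segment of the γ chain of the γδ T cell receptor, fell from 13.8 ± 0.615 to 4.53 ± 0.909 FPKM (limma adjusted p = 1.19e-06), and segments of this family share sequence, so their counts are uncertain. Fewer cells of a type and less RNA per cell cannot be told apart in bulk samples, and the part of other lymphocytes in the granule genes was not tested.

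*Itgae*, which encodes the CD103 integrin chain that TGF-β induces, fell from 19.99, 20.1 and 19.98 FPKM to 5.55, 5.73 and 5.54 FPKM (log2 fold change -1.82 ± 0.029, limma adjusted p = 7.02e-12). *Myo6*, an unconventional myosin of no list, fell from 9.39, 9.36 and 9.31 FPKM to 2.32, 2.37 and 2.38 FPKM (log2 fold change -1.95 ± 0.041, limma adjusted p = 6.96e-11). Both genes had libraries that were close together within a group and far apart between groups. Of 15 chemokine receptor genes tested, 9 were lower and 3 higher, or 5 higher without replicate 2 of both compounds. *Cxcr3*, *Cxcr6*, and *Gpr15*, receptors for inflamed tissue and gut, changed by -1.42, -1.29, and -1.38 on the log2 scale (limma adjusted p = 6.66e-07, 1.35e-07, and 1.97e-05), and *Ccr6* rose by 0.61 (limma adjusted p = 0.00134).

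Of 30 cytokine receptor genes, 7 were higher, a share close to the 19.7% of all genes tested, and 8 were lower, where 15.8% of all genes were. The list median was 0.03, from -0.06 to 0.04 over the alternatives, and the members summed to 1406 to 1420 FPKM with DMSO and 1540 to 1576 FPKM with both compounds. *Il2ra*, the α chain of the IL-2 receptor and the most abundant member, rose from 692, 702 and 686 FPKM to 928, 893 and 893 FPKM (log2 fold change 0.38 ± 0.021, limma adjusted p = 1.02e-07). *Csf2rb*, the shared β chain of the GM-CSF, IL-3, and IL-5 receptors, rose from 0.195 ± 0.0365 to 0.346 ± 0.06003 FPKM (limma adjusted p = 0.0135), and did not pass without DMSO replicate 1 or replicate 1 of both compounds or in a fit of the 2 groups alone (limma adjusted p from 0.0503 to 0.0567). *Il17rb*, a chain of the IL-25 receptor, fell from 5.04 ± 0.224 to 2.03 ± 0.143 FPKM, and *Il9r*, the receptor of IL-9 itself, from 1.41 ± 0.0638 to 0.705 ± 0.0104 FPKM (limma adjusted p = 2.93e-08 and 4.46e-05). *Il7r* and *Il4ra* changed by -0.52 and -0.40 on the log2 scale (limma adjusted p = 8.17e-07 and 1.44e-08). Among 23 genes of quiescence and memory, 11 were higher and 5 lower: *Id3* and *Klf2* changed by -1.41 and -1.09, and *Foxo3* rose by 0.94 (limma adjusted p = 1.03e-09, 0.000441, and 2.24e-08). In the adhesion list, 11 of 21 genes were higher and 8 lower, with *Icam1* at 5.04 ± 0.247 and 8.32 ± 0.165 FPKM and *Itgb3* at 33.6 ± 0.404 and 21.3 ± 0.152 FPKM with DMSO and both compounds (limma adjusted p = 3.41e-07 and 7.27e-09).

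Of 37 genes of the receptor signaling machinery, 22 were lower and 5 higher (3 higher without DMSO replicate 3 or without replicate 2 of both compounds), and the list median was -0.12. *Rasgrp1*, which activates RAS, and *Skap1*, an adaptor, changed by -0.68 and -0.57 on the log2 scale (limma adjusted p = 1.51e-08 and 5.57e-08). *Zap70*, the kinase that the receptor recruits, did not pass (52.6 ± 1.25 and 50 ± 1.7 FPKM, limma adjusted p = 0.0712), but was lower without DMSO replicate 2, without replicate 3 of both compounds, or with median-ratio scaling (limma adjusted p from 0.0294 to 0.0469). Of the 10 T cell markers, some of them in the same list, 7 were lower and 2 higher, and their sum went from 1277 to 1303 FPKM with DMSO to 1113 to 1134 FPKM with both compounds. *Cd28*, the costimulatory receptor that the culture engages, fell from 36.8, 38.2 and 36.9 FPKM to 20.3, 19.8 and 19.9 FPKM (log2 fold change -0.89 ± 0.026, limma adjusted p = 1.03e-09). *Cd3e*, *Trbc2*, and *Lck* changed by -0.39, -0.39, and -0.37, and the higher markers, *Cd4* and *Cd2*, rose by 0.21 and 0.31 (limma adjusted p = 3.87e-07, 2.93e-06, 2.46e-07, 3.21e-06, and 4.43e-08).

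Genes that the receptor induces were more often higher, 17 of 32, with 4 lower and a median of 0.26. *Nr4a3*, an orphan nuclear receptor of early activation, rose from 2.61, 2.62 and 2.6 FPKM to 7.61, 7.79 and 7.43 FPKM (log2 fold change 1.51 ± 0.048, limma adjusted p = 1.8e-09). *Nr4a2* rose from 1.45 ± 0.163 to 4.04 ± 0.261 FPKM, and *Crem*, a cAMP-responsive factor, from 21 ± 0.343 to 36.8 ± 0.17 FPKM (limma adjusted p = 3.58e-07 and 1.63e-10).

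NF-κB genes were higher or did not pass. Of 22 tested, 14 were higher and 0 lower, the other 8 did not pass, and the median was 0.20. At an unadjusted p below 0.05, 0 were lower, and voom on the recovered reads called 0 lower. *Nfkbie* and *Nfkbia*, which encode inhibitors that NF-κB itself induces, rose from 4.92 ± 0.24 to 11 ± 0.134 FPKM and from 29.2 ± 1.29 to 54 ± 2.04 FPKM (limma adjusted p = 2.22e-07 and 2.5e-08). *Nfkb2* and *Relb*, the subunits of the alternative pathway, rose by 0.86 and 0.85 on the log2 scale (limma adjusted p = 3.71e-09 and 9.12e-07), and *Tnfaip3*, which encodes the inhibitor A20, by 0.66 (limma adjusted p = 6.65e-07). *Rela*, the main subunit of the classical pathway, stood at 24.7 ± 0.697 and 25 ± 0.881 FPKM and did not pass (limma adjusted p = 0.75).

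Checkpoint and costimulatory receptors changed in both directions, 15 of 28 lower and 11 higher. *Entpd1*, the ectonucleotidase CD39, fell from 2.42, 2.39 and 2.58 FPKM to 0.919, 0.776 and 1.14 FPKM (log2 fold change -1.31 ± 0.11, limma adjusted p = 2.65e-06). *Cd200r1* and *Cd96* changed by -1.24 and -1.03 on the log2 scale, and *Pdcd1*, which encodes PD-1, by -0.25 (limma adjusted p = 2.37e-07, 2.34e-08, and 0.0017). *Btla* rose from 5.47 ± 0.0375 to 10.8 ± 0.377 FPKM and *Cd69* from 1.01 ± 0.0728 to 1.59 ± 0.0249 FPKM (limma adjusted p = 7.9e-08 and 0.000635).

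Genes of the hypoxia response, most of them targets of HIF-1, were higher in 19 of 23 cases and lower in 1, with a median of 0.33. *Hilpda*, which protects lipid droplets from lipolysis, rose from 31.7, 27.4 and 27.8 FPKM to 47.2, 49.9 and 51.8 FPKM (log2 fold change 0.78 ± 0.053, limma adjusted p = 6.75e-07). *Ddit4*, which restrains mTORC1, rose from 164, 162 and 156 FPKM to 232, 266 and 276 FPKM (log2 fold change 0.68 ± 0.051, limma adjusted p = 1.52e-06). *Ak4* and *P4ha2*, a mitochondrial kinase and a collagen hydroxylase, rose by 0.75 and 0.66 (limma adjusted p = 5.87e-07 and 6.43e-05), and the member that was lower was *Egln2*, a prolyl hydroxylase (log2 fold change -0.21, limma adjusted p = 0.00187). The letters ACGTG, the core of the hypoxia response element, which the E-box CACGTG also contains, lay within 250 bases before the start of 10 of 21 tested members with an entry and of 16.6% of all promoters.

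Glycolysis followed the same direction: 19 of 24 genes were higher and 1 lower, with a median of 0.21. *Hk2*, the hexokinase that commits glucose to the pathway, rose from 27.3, 27.2 and 28 FPKM to 45, 42.5 and 43.8 FPKM (log2 fold change 0.67 ± 0.031, limma adjusted p = 3.4e-08). The glucose transporters *Slc2a1* and *Slc2a3* rose by 0.35 and 0.37 on the log2 scale, and *Pfkfb3* and *Ldhb* both by 0.46 (limma adjusted p = 1.85e-06, 5.87e-07, 2.15e-05, and 3.27e-05). Of 33 genes of the pentose phosphate pathway and the TCA cycle, 17 were higher and 5 lower, or 3 lower without DMSO replicate 2 or 3. In the respiratory chain and ATP synthase, 6 of 80 were higher and 9 lower, below the share of all genes in each direction. Without replicate 1 of both compounds, 9 were higher and 5 lower, and without DMSO replicate 1, 5 were lower.

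Factors that assemble ribosomes rose almost as a whole, by small steps. Of 56 tested, 50 were higher and 1 lower, and the list median was 0.18. The largest change of the list, that of *Utp20*, stayed below 1.5-fold. *Utp20* is part of the complex that processes the small subunit RNA, and it rose from 10.7, 10.8 and 10.4 FPKM to 17.1, 15.8 and 15.1 FPKM (log2 fold change 0.58 ± 0.05, limma adjusted p = 4.36e-06). *Nop16*, *Polr1d*, and *Tsr1* rose by 0.42, 0.32, and 0.31 (limma adjusted p = 1.61e-05, 0.0159, and 5.19e-05), and *Polr1d* did not pass without DMSO replicate 2 or replicate 3 of both compounds (limma adjusted p of 0.0645 and 0.0542). The ribosomal proteins themselves did not move with them: of 78, 22 were lower and 2 higher, with a median of -0.06. *Rps7* fell from 401 ± 3.34 to 351 ± 9.19 FPKM, and *Rps27l*, which p53 induces, rose from 194 ± 7.74 to 259.6 ± 15.9 FPKM (limma adjusted p = 8.38e-05 and 2.52e-05). Without replicate 1 of both compounds, 13 ribosomal protein genes were lower and 3 higher, and without DMSO replicate 1, 13 were lower and 4 higher.

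Most genes of the 2 cell cycle lists fell, also by small steps. Of 35 genes of mitosis, 30 were lower and 0 higher, and the list median was -0.25. Of 45 genes of DNA replication, 29 were lower and 2 higher, with a median of -0.11. At an unadjusted p below 0.05, 0 mitotic genes were higher, and voom on the recovered reads called 0 higher, whereas 1 was higher without DMSO replicate 2. *Foxm1*, the factor that drives mitotic genes, fell from 27, 26 and 26.3 FPKM to 19.9, 19.3 and 20.4 FPKM (log2 fold change -0.41 ± 0.025, limma adjusted p = 3.03e-07). *Ube2c*, *Ccnb2*, and *Nuf2*, which act in cyclin destruction, entry into mitosis, and kinetochore attachment, changed by -0.44, -0.42, and -0.40 on the log2 scale (limma adjusted p = 3.47e-07, 1.33e-06, and 5.19e-05).

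In the replication list, *Lig1*, which joins Okazaki fragments, fell from 121 ± 0.828 to 98.3 ± 1.21 FPKM, and *Rfc4* and *Chaf1b* changed by -0.29 and -0.29 on the log2 scale (limma adjusted p = 6.59e-07, 2.93e-06, and 0.000199). *Ccne2*, the cyclin of entry into S phase, rose from 16.3 ± 0.583 to 20.4 ± 0.56 FPKM (limma adjusted p = 1.02e-05). The changes of the genes in these 2 lists, from -0.44 to 0.33 on the log2 scale, stayed below 1.5-fold.

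Of 18 heat shock genes, 13 were higher and 1 lower, with a median of 0.18. *Hspd1*, the mitochondrial chaperonin, rose from 306, 306 and 303 FPKM to 426, 423 and 421 FPKM (log2 fold change 0.47 ± 0.016, limma adjusted p = 2.44e-09). *Hsph1*, *Hsp90aa1*, and *Dnaja1* rose by 0.51, 0.35, and 0.25 (limma adjusted p = 2.24e-08, 2.06e-08, and 1.17e-05). Of 28 genes of the unfolded protein response of the endoplasmic reticulum (ER), 18 were lower and 2 higher, with a median of -0.19. *Xbp1*, a central factor of that response, fell from 79.5, 78.5 and 81 FPKM to 59.9, 61.2 and 64.5 FPKM (log2 fold change -0.36 ± 0.029, limma adjusted p = 2.6e-06), and *Creld2*, *Hyou1*, and *Manf* changed by -0.47, -0.38, and -0.31 (limma adjusted p = 9.68e-06, 4.67e-07, and 8.65e-07).

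Lipid synthesis genes, which SREBPs drive, had no common direction. Among 34 SREBP1 targets, most of them in fatty acid synthesis, 12 were higher and 9 lower, with a median of 0.06. *Scd1*, the stearoyl-CoA desaturase, fell from 243, 246 and 241 FPKM to 169.6, 172 and 171 FPKM (log2 fold change -0.51 ± 0.018, limma adjusted p = 5.24e-09). *Srebf1*, which encodes SREBP1, fell from 37.7, 36.4 and 38 FPKM to 29.1, 28.7 and 29.4 FPKM (log2 fold change -0.36 ± 0.023, limma adjusted p = 4.19e-07). *Fads1* changed by -0.23, whereas *Fasn*, the fatty acid synthase, rose by 0.17 on the log2 scale (limma adjusted p = 4.47e-05 and 2.01e-05). *Scd2* (534 ± 8.22 and 517 ± 14.9 FPKM), *Fads2* (20.3 ± 0.607 and 20.7 ± 0.897 FPKM), and *Srebf2* (39.5 ± 0.644 and 39.5 ± 0.292 FPKM) did not pass (limma adjusted p = 0.139, 0.704, and 0.993), although *Scd2* was lower without replicate 1 of both compounds, with median-ratio scaling, or with voom (adjusted p from 0.0259 to 0.0318).

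Among the higher members were genes of fatty acid activation and storage. *Acsl4*, which favors arachidonic acid, rose from 32, 30.8 and 31.1 FPKM to 47.1, 47.2 and 46.2 FPKM (log2 fold change 0.58 ± 0.023, limma adjusted p = 9.97e-09), and *Lpin1* and *Dgat2*, of triglyceride synthesis, both rose by 0.59 (limma adjusted p = 7.29e-05 and 0.0115). Of 32 genes of cholesterol synthesis and uptake, 9 were higher and 9 lower, with changes between -0.28 and 0.57 on the log2 scale. *Insig2* and *Idi1* rose by 0.37 and 0.57 (limma adjusted p = 7.55e-05 and 3.87e-06). Targets of LXR, the sensor of oxysterols, were lower in 6 of 13 cases and higher in 1 (2 without DMSO replicate 2), with *Arl4c* falling from 43.4 ± 0.294 to 25.8 ± 0.577 FPKM and *Abcg1*, a cholesterol exporter, from 7.78 ± 0.529 to 5.94 ± 0.329 FPKM (limma adjusted p = 1.31e-09 and 0.000785).

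**Figure D4:**
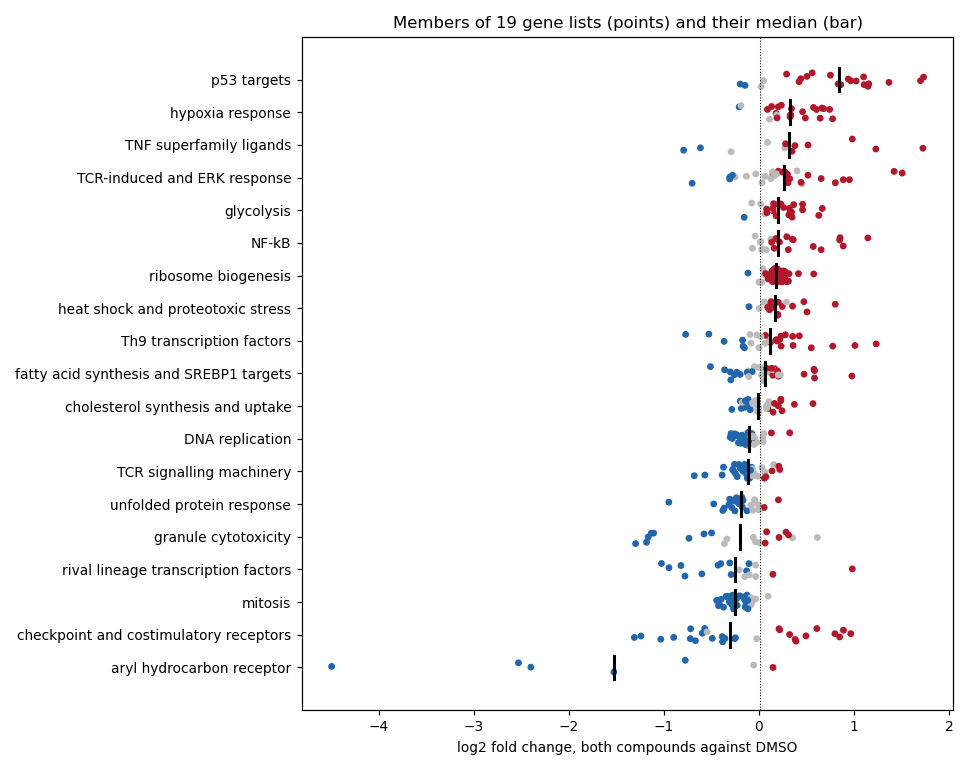
Log2 fold change of both compounds against DMSO (horizontal axis) of the tested members of 19 gene lists (points). Red and blue points are members higher or lower at an adjusted p below 0.05, gray points did not pass, black bars are list medians, and the dotted line is the median of all genes tested (0.02); the medians run from -1.52 for AHR genes to 0.85 for p53 targets.

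Most of the remaining lists held genes that moved both ways. Interferon-stimulated genes were lower in 12 of 32 cases and higher in 3, with a median of -0.13. Of 23 TGF-β response genes, 9 were higher and 3 lower. *Serpine2*, a serine protease inhibitor, rose by 0.81 (limma adjusted p = 3.1e-06), and *Itgae*, also a member, changed by -1.82. In the list of ATF4 targets, serine, and one-carbon genes, 8 of 35 were higher and 10 lower, and *Chac1*, an ATF4 target that cleaves glutathione, changed by -0.73 (limma adjusted p = 0.000496). Sphingolipid enzymes (2 higher and 6 lower of 22), fatty acid oxidation (5 and 4 of 26), the proteasome (7 and 7 of 45), mitochondrial ribosomes (17 and 4 of 77), tRNA synthetases (2 and 6 of 23), heme metabolism (1 and 4 of 18), lysosome and autophagy (13 and 5 of 34), and brakes of JAK-STAT signaling (6 and 4 of 19) had medians between -0.07 and 0.04. Of all genes tested, 19.7% were higher and 15.8% lower, and both counts of fatty acid oxidation and the proteasome and the higher counts of the ATF4 list and of mitochondrial ribosomes were close to these shares. Most of these small counts moved when 1 library was left out: to 2 higher for fatty acid oxidation (without DMSO replicate 3 or replicate 2 or 3 of both compounds) and 3 (without DMSO replicate 2), to 3 lower for sphingolipid enzymes (replicate 3 of both compounds), to 2 lower for mitochondrial ribosomes (DMSO replicate 3), to 1 higher for tRNA synthetases (DMSO replicate 1, replicate 1 or 3 of both compounds), to 2 higher for heme metabolism (DMSO replicate 1), and to 2 lower for JAK-STAT brakes (DMSO replicate 1 or 2, replicate 1 of both compounds). The sign of the median changed with the scaling for fatty acid oxidation, the proteasome, tRNA synthetases, lysosome and autophagy, JAK-STAT brakes, the respiratory chain, and the myeloid markers. Of the platelet and erythroid markers, 2 of 5 were higher, with *Pf4* at 1.1 ± 0.37 and 2.76 ± 0.589 FPKM (limma adjusted p = 0.00101). Of the myeloid markers, 2 of 7 were higher, with *Cd68* at 1.21 ± 0.0728 and 1.89 ± 0.447 FPKM (limma adjusted p = 0.0329), a call held in only 1 of the 6 fits that left out a library (that without replicate 2 of both compounds), and the mast cell markers summed to 1.03 to 1.27 FPKM with DMSO and 0.752 to 1.54 FPKM with both compounds. The part of such cells in the results was not tested.

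Several genes with a large fitted change rest on few reads or uneven replicates. *Mir6913*, *Mir7028*, and *Mir6386* are shorter than 200 bases and held 0 to 12 reads in the 6 libraries, and each lost its call when any of several libraries was left out (limma adjusted p up to 0.112, 0.136, and 0.0871). *H2ac10*, a histone gene of a family of near-identical copies, stood at 6.03, 6.87 and 6.74 FPKM with DMSO and 5.13, 0.965 and 1.59 FPKM with both compounds, with replicate 1 of the combined treatment near the DMSO level. *Trgj2*, a joining segment, stood at 2.73, 6.53 and 2.3 FPKM and 0.784, 1.2 and 1.22 FPKM. Of the called genes, 7 of the higher and 16 of the lower were shorter than 200 bases.

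Both compounds together were also set against each compound alone. Against EpA, which shows what the addition of fatostatin changed, 207 genes were higher (1.51%) and 66 lower (0.481%). Against fatostatin, which shows what the addition of EpA changed, 259 were higher (1.89%) and 256 lower (1.86%). The libraries of both compounds are shared by these comparisons and the one against DMSO. *Il9* differed from fatostatin alone by 3.63 and from EpA alone by 0.36 on the log2 scale (limma adjusted p = 1.72e-11 and 0.00132).

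The combined treatment lay past both thresholds against each of DMSO, EpA, and fatostatin in the same direction for 31 higher genes (0.226%) and 14 lower genes (0.102%). *Cdkn1a* was 0.74 above EpA and 0.74 above fatostatin on the log2 scale, *Plk2* 0.92 and 0.66, and *Ccl17* 0.88 and 1.58 (limma adjusted p of at most 0.000153 in these 6 tests). *Lilrb4b*, an inhibitory receptor of the immunoglobulin family, stood at 0.651, 1.42, 0.806, and 2.33 FPKM with DMSO, EpA, fatostatin, and both. *Slc27a6*, a fatty acid transport protein, stood at 0.872, 1.11, 0.851, and 1.82 FPKM in the same order, so the level with both compounds was well above each of the other groups. *Igkc*, an immunoglobulin constant gene, was on the same list with 2.42, 3.1, 3.28, and 5.52 FPKM. Among the lower genes, *Lgals3* stood at 23.9, 13.4, 6.76, and 4.1 FPKM, *Myo6* at 9.35, 4.08, 5.26, and 2.35 FPKM, and *Itgae* at 20.01, 8.53, 12.3, and 5.61 FPKM. *Cyp1a1* and *Cd8a* were also among the 14. *Trgc1*, *Trgc3*, and *Gzmc* were lower in the same way, at 4.53, 0.688, and 1.45 FPKM with both compounds and 13.8, 1.81, and 3.3 FPKM with DMSO.

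For the gene lists, the steps from each single compound are given side by side. Mitotic genes were lower than with EpA in 24 of 35 cases and lower than with fatostatin in 24, where 6.79% and 13.3% of all genes tested were lower at an adjusted p below 0.05. p53 targets were higher than with EpA in 18 of 22 cases (9.22% of all genes) and higher than with fatostatin in 11, with 3 lower (16.2% of all genes higher). Ribosome biogenesis genes were higher than with fatostatin in 54 of 56 cases and lower in 1, but higher than with EpA in 1 and lower in 6. Hypoxia genes were higher than with fatostatin in 19 of 23 cases, and against EpA 3 were higher and 2 lower. AHR genes were lower than with EpA in 5 of 7 cases, whereas against fatostatin 2 were lower and 2 higher, with a median of 0.10.

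Whether the combined shift differed from the sum of the single shifts on the log2 scale was tested with the interaction term. No gene passed both thresholds for it (limma), 6 genes had an adjusted p below 0.05 (0.0437%), and 1083 of the 13733 had an unadjusted p below 0.05, or 7.89%. The 6 genes did not hold when libraries were left out, with 0 to 2 genes passing without any 1 of the 12 libraries. There were 1 with TPM scaling, 0 with median ratios, 0 with a replicate block, 8 to 10 with other pseudocounts or a minimum of 1 FPKM, and 20 by voom on the recovered reads. *Il9* showed an interaction of 0.08 ± 0.08 (limma adjusted p = 0.892). The largest of the 6 terms was that of *Nr4a3*, which stood at 2.61 ± 0.00852 FPKM with DMSO, 2.65 ± 0.104 with EpA, 5.32 ± 0.286 with fatostatin, and 7.61 ± 0.182 with both.

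Opposite steps of the single compounds met in a small group of genes. EpA raised and fatostatin lowered 7 genes past both thresholds (0.0510%), and EpA lowered and fatostatin raised 18 (0.131%). Against DMSO, 6 of the 7 and 15 of the 18 were not called with both compounds. The exception among the 7 was *Cyp1b1*, at 0.286, 1.03, 0.00564, and 0.0343 FPKM with DMSO, EpA, fatostatin, and both. *Pdpn*, the gene of podoplanin, stood at 16.9, 17.6 and 16.1 FPKM with DMSO, 29.9, 31.9 and 30.2 FPKM with EpA, 7.11, 7.08 and 7.24 FPKM with fatostatin, and 16.2, 17.5 and 16.4 FPKM with both. The libraries of the combined treatment overlapped those of DMSO, although each compound alone had moved the gene away from them (log2 fold change of both against DMSO -0.01 ± 0.04, limma adjusted p = 0.81).

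*Asb2*, a ubiquitin ligase subunit, *Ermn*, a cytoskeletal protein, and *Lmna*, the gene of lamin A and C, were raised by EpA and lowered by fatostatin. Their log2 fold changes with both compounds were -0.22, 0.15, and 0.28 (limma adjusted p = 0.148, 0.133, and 0.00154). *Trat1*, an adaptor of the T cell receptor, was lowered by EpA to 2.57 ± 0.156 FPKM and raised by fatostatin to 14.4 ± 0.627 FPKM from 7.13 ± 0.233 FPKM, and with both it stood at 5.03 ± 0.043 FPKM (limma adjusted p against DMSO = 1.18e-05). *Art2b*, *St8sia6*, and *F2rl2* had steps of the same signs as *Trat1*, and none of these 3 passed with both compounds, with log2 fold changes of 0.47, 0.17, and -0.29 (limma adjusted p = 0.101, 0.11, and 0.228). *Art2b* passed with a pseudocount of 1, with voom, or with only 2 groups in the fit (adjusted p from 0.0345 to 0.0386).

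**Figure D5:**
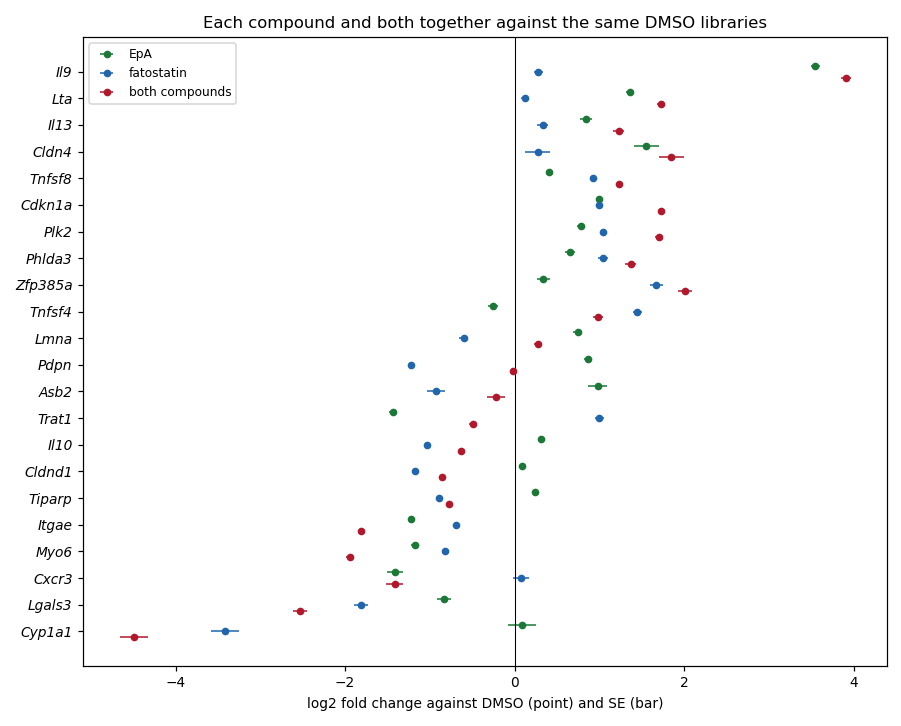
Log2 fold change against DMSO (point) and its SE (bar) of 22 genes with EpA (green), fatostatin (blue), and both compounds (red), all 3 computed against the same DMSO libraries. Both compounds together lie beyond either compound alone for *Cdkn1a*, *Plk2*, *Itgae*, and *Lgals3*, between them for *Pdpn* and *Trat1*, and next to EpA alone for *Il9* and *Cxcr3*.

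Further genes with large changes were in none of the lists, except *Cpox* (heme metabolism) and *Gpr15* (chemokine receptors). *Cldn4*, a tight junction claudin, rose from 1.18 ± 0.318 to 4.42 ± 0.337 FPKM, *Scin*, an actin-severing protein, from 0.667 ± 0.103 to 2.44 ± 0.0427 FPKM, *Ak1*, an adenylate kinase, from 0.618 ± 0.174 to 2.44 ± 0.339 FPKM, and *Crip2*, a LIM-domain protein, from 1.999 ± 0.139 to 6.93 ± 0.183 FPKM (limma adjusted p = 2.93e-06, 3.42e-07, 3.33e-06, and 6.05e-08). *Car8*, a carbonic anhydrase-related protein, fell from 1.86 ± 0.0966 to 0.609 ± 0.116 FPKM (limma adjusted p = 2.64e-05). *Cldnd1*, a claudin-like membrane protein, fell from 149, 146 and 146 FPKM to 82.3, 82.8 and 79.3 FPKM, and *Cpox*, the heme synthesis enzyme coproporphyrinogen oxidase, from 41.8, 41.7 and 41.5 FPKM to 22.8, 23.2 and 23.1 FPKM, with log2 fold changes of -0.85 ± 0.022 and -0.85 ± 0.026 (limma adjusted p = 3.44e-10 and 1.43e-09). *Cpox* and *Gpr15* overlap each other on opposite strands of chromosome 16. The sources used here do not say whether counting used strand, and without strand the reads of such genes cannot be told apart. Of the called genes, 77 of the higher and 36 of the lower overlap a gene on the other strand, as do 20.02% of all genes tested. The same holds for 18 of the 182 tested genes named here, which besides *Cpox* and *Gpr15* are *Bhlhe40*, *Ccne2*, *Crem*, *Dnaja1*, *Egln2*, *Ermn*, *Foxp3*, *Hspd1*, *Il17rb*, *Lig1*, *Manf*, *Nfkb2*, *Rfc4*, *Srebf1*, *Tsr1*, and *Ube2c*, and their values are uncertain to that extent.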

How the data were processed

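RNA-seq was done on 12 libraries of Th9 cells, 3 for each of DMSO, EpA, fatostatin, and both compounds. Per the study's methods, the authors used Trim Galore for trimming, HISAT2 for alignment (to GRCm38), and featureCounts for counts per gene, and deposited the values as FPKM. The annotation release and the strand setting of the counting are not given in the sources used here. Columns of the 12 libraries were matched by name to the sample labels, and 301 repeated lines of the table were merged, which left 32051 genes.

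Genes that averaged 0.1 FPKM or more, 13733 in all, were tested with limma 3.58.1 (R 4.3.3) on log2(FPKM + 0.1), with 1 mean per group over all 12 libraries, a mean-variance trend, and Benjamini-Hochberg adjustment over all genes tested. A call needed an adjusted p under 0.05 and a change of 1.5-fold or more, and members of gene lists were counted at the adjusted p alone. The procedure was also run on simulated reads, with the same relative spread for every gene and no differences between replicate libraries. That setting is simpler than these data, so the run cannot vouch for the counts given here. Multiples of the value of 1 read gave whole reads, within 0.01, for 98.3 to 98.4% of values, and 36019739 to 43656682 reads on genes per library, and counting error is largest for the genes with few reads.

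The comparison and the gene lists were chosen with earlier results of these data known. The genes named are the main cytokines, lineage factors, and SREBP genes, the 12 largest changes in each direction, and up to 4 members of each list with the largest change at an adjusted p below 0.05. To these were added the 6 largest in each direction that were past every group, the 6 largest interaction terms in each direction, and the 4 largest opposed changes on each side, each averaging 1 FPKM or more. *Ahrr*, *Arnt*, *Bax*, *Cd2*, *Cd4*, *Cd8b1*, *Ckap2*, *Csf2rb*, *Cyp1b1*, *Egln2*, *Eomes*, *Etv5*, *Il2ra*, *Klrk1*, *Mdm2*, *Mir8116*, *Pparg*, *Prdm1*, *Rela*, *Sesn1*, *Tnfaip3*, and *Trp53* were named after their values were seen. Some genes that met the rule are not reported here. Promoter sequences are from RefSeq (GRCm38.p6). Alternatives were other pseudocounts, minimum levels, fold changes, scalings (TPM, median ratios), voom on the recovered reads, a replicate block, a fit of 2 groups only, and leaving out each library.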

Additional observations from a re-analysis of the deposited data

Results flagged for a closer look

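The effect of EpA in the presence of fatostatin differed from its effect without fatostatin for 6 genes, by the interaction term in limma (adjusted p = 0.0372 for each). The count depended on the processing: 0 genes passed with a replicate block or median-ratio scaling, 1 with TPM scaling, 0 to 2 without any 1 of the 12 libraries, 5 with no minimum FPKM, 8 with a minimum of 1 FPKM, 9 and 10 with pseudocounts of 1 and 0.01, and 20 with voom on the recovered reads. The term, on the log2 scale, was -0.2545 ± 0.0315 (SE) for *Cdkn1a*, where each compound alone changed the gene by 0.99 and 0.99 and both together by 1.73. It was 0.4899 ± 0.0679 for *Nr4a3*, with 0.02 for EpA, 1.00 for fatostatin, and 1.51 for both. *Neat1*, a nuclear long noncoding RNA, had a term of 0.3345 ± 0.0444 and stood at 8.38, 7.84, 7.34, and 8.68 FPKM with DMSO, EpA, fatostatin, and both. *Rara*, the retinoic acid receptor α, had a term of 0.3276 ± 0.0423 and stood at 8.63, 8.77, 6.57, and 8.41 FPKM. The terms of *Cpox* (0.2861 ± 0.0371) and *Cldnd1* (0.2284 ± 0.0313) were those of genes that fatostatin lowered by more alone than with EpA.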

How the results depend on the processing

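The counts of called genes depended on the fold threshold and on how low genes were treated. With a fold change of at least 1.2 the counts higher and lower were 1331 and 936 against DMSO, 633 and 215 against EpA, and 916 and 772 against fatostatin, and with at least 2 they were 172 and 101, 46 and 24, and 63 and 69. A pseudocount of 1 gave 167 and 118, 51 and 33, and 70 and 91. A minimum mean of 1 FPKM gave 228 and 161 against DMSO, 98 higher against EpA, and 113 and 139 against fatostatin. Other scalings and voom kept the counts against DMSO within 1.5 times, at 463 to 611 higher and 268 to 309 lower, and the part of called genes that were higher, 64.3%, ranged from 61.2% to 66.4% in these and was 58.6% with a pseudocount of 1. Leaving out each library of the 2 groups compared gave 454 to 504 higher and 252 to 271 lower against DMSO, 171 to 199 and 62 to 78 against EpA, and 231 to 250 and 239 to 250 against fatostatin.

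Genes that departed from additivity numbered 10 with a pseudocount of 0.01, 1 with TPM scaling, 0 with median ratios, 20 with voom, and 0 to 2 with a library left out. The replicate numbers were shared by the groups and were not used as pairs in the main fit. Deviations of same-numbered DMSO and combined libraries correlated at -0.021, -0.0054, and 0.012. Such values cannot show whether these libraries shared a mouse or a culture, which the labels do not say. With the replicate number as a replicate block, 496 genes were higher and 272 lower against DMSO and 0 departed from additivity.

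Of 182 named genes, 160 kept their direction and side of the threshold in every alternative. The 8 that changed sign did not pass in the fit as reported or in those alternatives. With 1 library left out, the log2 fold change ranged from -0.1603 to 0.0137 for *Cd8b1*, -0.0041 to 0.0573 for *Fads2*, -8.471e-06 to 0.0433 for *Trp53*, -0.1239 to 0.1220 for *Prf1*, -0.0087 to 0.0131 for *Srebf2*, -0.0145 to 0.0538 for *Gata3*, -0.0489 to 0.0160 for *Pdpn*, and -0.0122 to 0.0375 for *Rela*. *Rela* was at -0.0063 with median ratios and *Srebf2* at 0.0092 with TPM scaling. The medians of 11 of 49 lists changed sign in some alternative, among them cholesterol synthesis, the proteasome, and the respiratory chain. The median of all genes tested stayed between -0.003 and 0.0257. The cause of these shifts was not tested.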
